A study of Mus musculus with 2 samples.

Results

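The mitochondrial genome of the mouse carries 37 genes, and all of them were among the 55450 annotated genes that the deposited tables of this total RNA-seq series shared with the annotation. They were chosen by name, as every gene whose symbol starts with mt-. The set holds 13 genes for mRNAs, 2 for rRNAs and 22 for tRNAs. RNA came from a calf muscle, the gastrocnemius, taken at 25 days of age from 2 males of the B6Cast F1 cross (strain B6CASTF1/J), with 1 library from 300 ng of RNA each. The animals, named animal 1 and animal 2 here (males 03 and 04 in the labels), form 1 group with no treatment and no control, so no condition was compared. The libraries were stranded and reduced in ribosomal RNA, per the name of the spike-in profile in the labels. Both libraries carry 1 donor entry there, so the spread between them may be technical. With 1 group of 2 animals no test between conditions exists and an exact two-sided test over 2 animals cannot go below p = 0.5, so values are given per animal or as mean ± SD.

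Mitochondrial DNA is a small circle, transcribed from both strands into long precursors. The tRNAs lie between most of the larger genes, and cutting them out releases the rRNAs and mRNAs. The mRNAs encode core subunits of respiratory complexes I, III and IV and of ATP synthase, the enzymes of oxidative phosphorylation on which muscle relies for sustained work, while the nucleus encodes all other subunits and every protein that transcribes, processes and translates mitochondrial RNA. Fragments of mitochondrial DNA have also been copied into nuclear chromosomes in the course of evolution, and a read from a recent copy can look the same as a read from the mitochondrial gene.

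Such copies were present for most of the mRNAs measured here. In the annotation (GENCODE M21, mm10), 7 pseudogenes within 4663 bases of chromosome 1 (chr1:24611535-24616197, minus strand) matched mt-Co1, mt-Co2, mt-Atp6, mt-Co3, mt-Nd3, mt-Nd4l and mt-Nd4, in the same order as on the mitochondrial genome. No other annotated gene lay within 10 kb of Gm28437, the copy of mt-Co3. Over their aligned length, 5 of the copies were identical to the mitochondrial gene and the other 2 differed from it by 1 base each. The differing base stands in capitals in the pairs that follow, which come from the GENCODE transcripts and show how little separates a gene from its copy. They lie at chrM:6390-6418 and chr1:24616160-24616188 for the first pair and at chrM:9459-9486 and chr1:24613092-24613119 for the second. Counted from 1 at the first base of the mitochondrial gene, the differences are A1066T for mt-Co1 and T3C for mt-Nd3.
mt-Co1: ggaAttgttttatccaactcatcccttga
Gm29216: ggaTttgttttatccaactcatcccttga
mt-Nd3: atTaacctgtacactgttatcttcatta
Gm28438: atCaacctgtacactgttatcttcatta

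The 3 mRNAs whose levels changed most when the copies were added begin as follows, with the first codon in capitals. For mt-Co2 (chrM:7013-7072), mt-Atp6 (chrM:7927-7986) and mt-Co3 (chrM:8607-8666) a copy of the same letters lies on chromosome 1.
mt-Co2 start: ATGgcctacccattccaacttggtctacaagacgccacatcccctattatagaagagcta
mt-Atp6 start: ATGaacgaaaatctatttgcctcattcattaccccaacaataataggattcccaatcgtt
mt-Co3 start: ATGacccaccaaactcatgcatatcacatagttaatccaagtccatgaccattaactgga

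Nuclear transcripts held 99.5% of the windows of 100 bases in mt-Co2 and in mt-Atp6, 99.9% of those in mt-Co3, 98.5% of those in mt-Nd4l and 97.6% of those in mt-Nd3. They held 60.8% of the windows in mt-Nd4, 30.8% of those in mt-Co1 and 3.19% of those in mt-Nd2, and none of those in the other 5 mRNAs or the 2 rRNAs. A further 4 pseudogenes, Gm13339, Gm13340 and Gm13341 on chromosome 2 and Gm4076 on chromosome 13, matched mt-Nd2, mt-Co1, mt-Co2 and mt-Nd5 over at least 200 bases at 95% identity or more. Their TPM stayed at or below 8.07 in the gene table.

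Together the mitochondrial genes reached 24.1% of TPM in animal 1 and 18.3% in animal 2 (21.2% ± 4.09, SD, n = 2). TPM is the level of a gene corrected for its length, as a share of all transcripts. Total expected counts were 35098487 and 37428588, of which 21.7% (95% Wilson interval 21.67 to 21.70) and 17.2% (17.22 to 17.25) fell on mitochondrial genes. These intervals cover counting error only. Most of the signal came from the 2 rRNAs, at 16.5% and 12.2% of TPM, and the 13 mRNAs took 7.61% and 6.10%. The small cytoplasmic RNAs Rn7s1 and Rn7s2 took another 26.6% and 29.8% of TPM in this table, and leaving them out of the total raised the mean mitochondrial share to 29.5%.

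The mt-Rnr1 gene (12S rRNA, chrM:70-1024) stood at 75073 TPM in animal 1 and 44316 in animal 2, and mt-Rnr2 (16S rRNA, chrM:1094-2675) at 89920 and 77894. These rRNAs form the core of the small and large subunits of the mitochondrial ribosome. They ranked 4th and 3rd among all genes by mean TPM in the gene table, behind Rn7s1 and Rn7s2. Both were lower in animal 2, with a log2 ratio of -0.76 for mt-Rnr1 and -0.21 for mt-Rnr2, so the ratio of mt-Rnr1 to mt-Rnr2 fell from 0.835 in animal 1 to 0.569 in animal 2. The second quantification, another set of transcript levels deposited for the same libraries, gave -0.76 and -0.16 and ratios of 0.781 and 0.516. It listed Rn7s1 and Rn7s2 at only 0.57 TPM each in animal 1 and 0.29 each in animal 2. Neither rRNA shares a window of 100 bases with a nuclear transcript. The part that the reduction of ribosomal RNA in the libraries had in these levels was not tested.

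Among mRNAs, mt-Co1, the catalytic subunit of complex IV, was highest in the gene table, at 13550 and 15070 TPM. It was followed by mt-Cytb, the only mitochondrial subunit of complex III, at 8939 and 8081 TPM. In both animals these stood above every nuclear subunit of the same complex. At the other end, mt-Co2, the subunit of complex IV that takes electrons from cytochrome c, stood at 164 and 123 TPM, which is 99.9-fold below mt-Co1 by mean TPM. Of the counts on mt-Co2 and its chromosome 1 copy Gm28661 together, however, 98.9% in animal 1 and 99.2% in animal 2 were given to the copy. With the counts of the copy added, mt-Co2 stood at 15459 and 15650 TPM.

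Complex I subunits formed a narrow band apart from mt-Nd6. The genes mt-Nd1, mt-Nd2, mt-Nd3, mt-Nd4, mt-Nd4l and mt-Nd5, which build its membrane arm, lay between 3150 and 6419 TPM over both animals. Within it, mt-Nd1 differed least between the animals (6278 and 6261 TPM) and mt-Nd4 most (6419 and 4656 TPM, log2 ratio -0.46). The gene mt-Nd6 stood at 798 and 776 TPM. It is the only one of the 13 mRNAs on the minus strand (chrM:13552-14070) and it overlaps mt-Nd5 by 14 bases on the opposite strand. Its level was 22.8% of that of mt-Nd5 in each animal, and 27.4% and 30.2% in the second quantification. Its composition also set it apart, with 28.1% G and 5.97% C, where the 12 mRNAs of the plus strand had 5.88 to 16.1% G and 22.1 to 29.97% C.

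In the gene table, without copies, the subunits of ATP synthase stood close to the same band. There mt-Atp6, part of the proton channel, stood at 5574 and 5194 TPM. With its chromosome 1 copy added it stood at 16014 and 16730 TPM, and in the second quantification it stood alone at 19237 and 20704 TPM. The neighbouring mt-Atp8, a small subunit of the membrane part, stood at 7900 and 4346 TPM in the gene table (log2 ratio -0.86). These genes overlap by 43 bases and are carried on 1 mRNA, as are mt-Nd4l and mt-Nd4, which overlap by 7 bases. Both overlaps are shorter than the 99 bases that the gene table subtracts from each length. The deposited posterior SD of the mt-Atp8 count was 0 in both animals. The shared stretches are in capitals, within chrM:7912-7984 and chrM:10152-10188.
mt-Atp8/mt-Atp6: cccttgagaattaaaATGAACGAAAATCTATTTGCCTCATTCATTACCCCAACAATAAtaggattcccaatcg
mt-Nd4l/mt-Nd4: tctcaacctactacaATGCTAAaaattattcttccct

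The third complex IV gene, mt-Co3, stood at 9825 TPM in animal 1 and 1727 in animal 2. This was the only one of the 13 mRNAs over 2-fold apart between the animals (log2 ratio -2.51), where 2.34% of all 11224 genes at a mean TPM of 1 or more were, and 1.07% were over 2-fold lower in animal 2. By counts scaled with TMM factors mt-Co3 was again the only one (log2 ratio -2.61), against 1.91% of all genes. The levels of the other 12 differed by less than 2-fold. By mean TPM the order ran mt-Co1, mt-Cytb, mt-Nd1, mt-Atp8, mt-Co3, mt-Nd4, mt-Atp6, mt-Nd4l, mt-Nd2, mt-Nd5, mt-Nd3, mt-Nd6 and mt-Co2. The values of neighbours in that order overlapped between the animals for 6 of 12 neighbouring pairs, and 5 of 13 genes held the same rank in both animals.

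**Figure D1:**
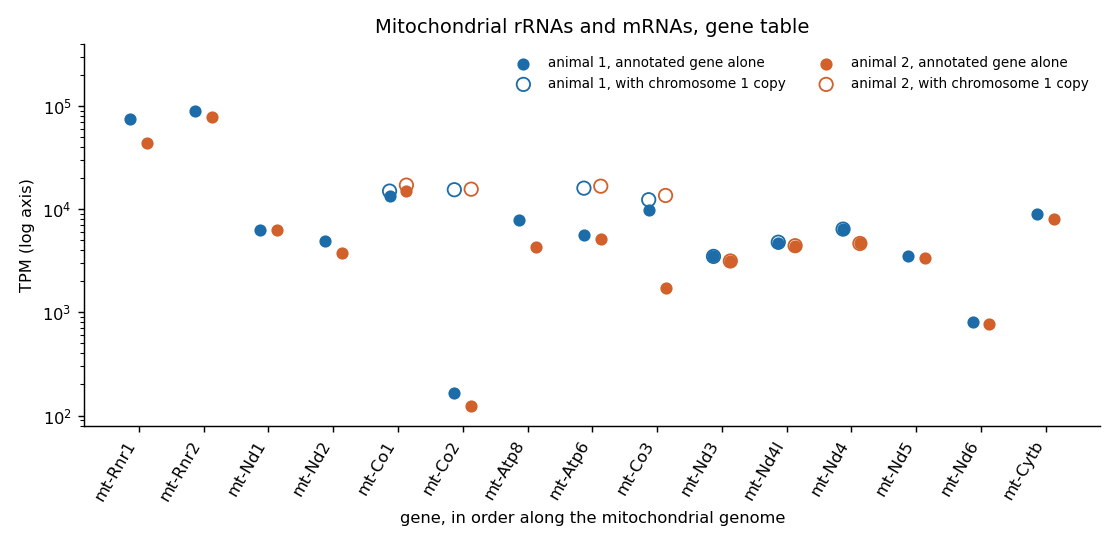
TPM (log axis) of the 2 rRNAs and 13 mRNAs in order along the mitochondrial genome, per animal, for the annotated gene alone (filled) and with the counts of its chromosome 1 copy added (open). The filled points of mt-Co2 lie far below all others and those of mt-Co3 far apart, while the open points of mt-Co1, mt-Co2, mt-Atp6 and mt-Co3 lie together between 12365 and 17128 TPM.

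The counts of mt-Co2, mt-Atp6 and mt-Co3 were divided with their copies. Of the counts on mt-Co2 and its copy Gm28661 together, 98.9% in animal 1 and 99.2% in animal 2 were given to the copy. For mt-Atp6 and Gm10925 the copy took 65.2% and 69.0%. For mt-Co3 and Gm28437 it took 20.5% and 87.3%, so the pseudogene rose from 2544 to 11887 TPM while the mitochondrial gene went from 9825 to 1727. The copy of mt-Co1, Gm29216, took 9.61% and 12.01%, and that of mt-Nd4l, Gm10222, took 1.00% in animal 1. The copies of mt-Nd3 and mt-Nd4 were given no counts in either animal. All 7 copies together held 32.2% and 44.4% of the counts of these pairs.

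The second quantification divided the same libraries in another way. There Gm28661 took 94.3% and 95.2% of its pair and Gm28437 took 76.0% and 78.9%, but Gm10925 took 1.68% and 0.01%. The copies held 24.2% and 25.7% of the pair counts in all. How many reads, if any, came from transcripts of the nuclear copies was not measured, since the sequences are the same over nearly all of their length.

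**Figure D2:**
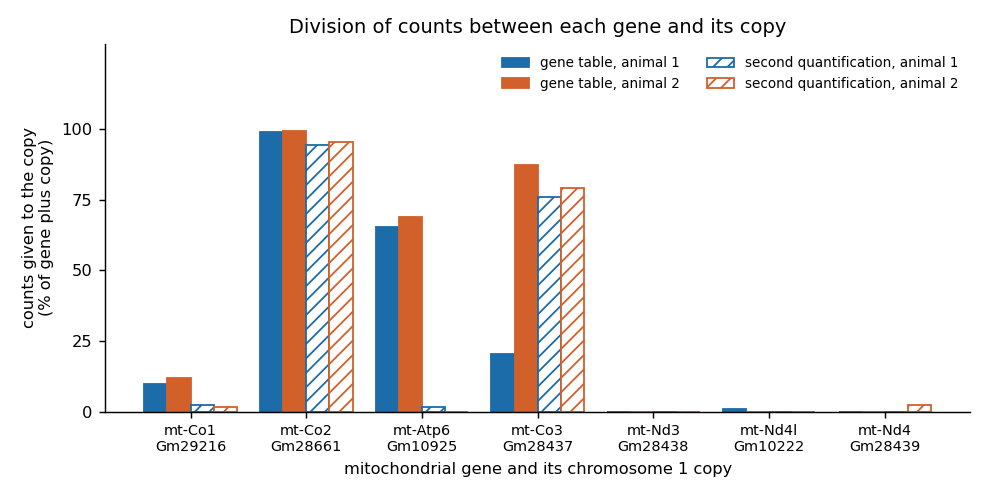
Percent of the counts of a mitochondrial gene and its chromosome 1 copy that were given to the copy, per animal, in the gene table (solid bars) and in the second quantification (hatched bars). The copy of mt-Co2 holds 94.3 to 99.2%, the copy of mt-Co3 holds 20.5% in 1 case and 76.0 to 87.3% in the others, and the copy of mt-Atp6 holds 65.2 and 69.0% in the gene table and at most 1.68% in the second quantification.

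The deposited posterior values of the gene table spread most for the same 3 mRNAs. The posterior SD of the count was 19.1% and 23.8% of its mean for mt-Co2, 5.05% and 6.88% for mt-Co3 and 4.71% and 4.39% for mt-Atp6. For the 6 mRNAs with no annotated copy on chromosome 1 it was at most 0.00034%. By posterior mean TPM, mt-Co3 stood at 6910 and 4927 (log2 ratio -0.49), so that it was no longer over 2-fold apart, whereas mt-Co2 stood at 1545 and 701 (-1.14). The deposited interval for mt-Co3 ran from 6270 to 7617 TPM in animal 1 and from 4361 to 5632 in animal 2. Its deposited TPM lay above the interval in animal 1 and below it in animal 2. Of the 15 rRNAs and mRNAs, 12 had a TPM above the upper bound in both animals, and the exceptions were mt-Co2, mt-Atp6 and mt-Co3. Among the 12, mt-Nd1 had a posterior SD of 0 and stood at 6278 TPM in animal 1, against a posterior mean of 6137. The share of all genes with a TPM above the upper bound was not counted, so whether the number is particular to the mitochondrial genes is not known.

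**Figure D3:**
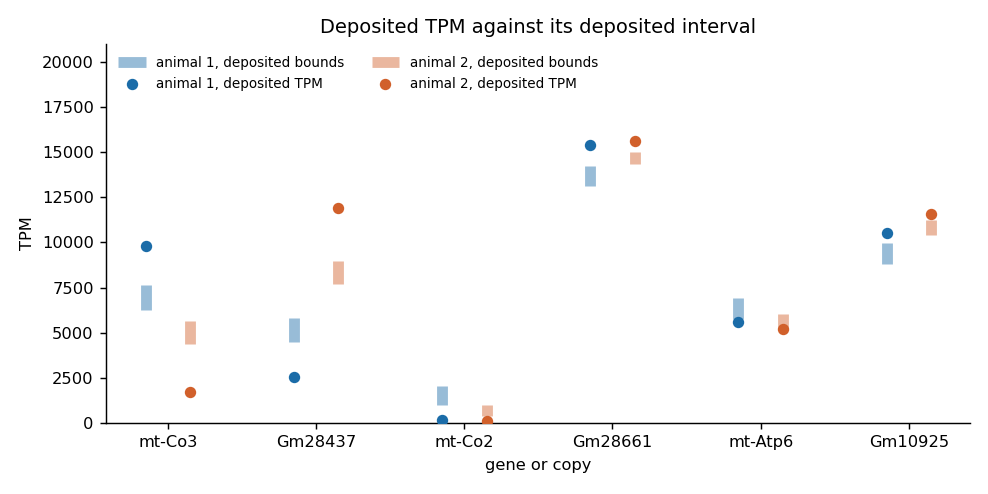
Deposited TPM (points) and deposited posterior interval (bars) of mt-Co3, mt-Co2, mt-Atp6 and their chromosome 1 copies, per animal. For mt-Co3 and Gm28437 the point and the bar part in opposite directions in the 2 animals, with 9825 TPM above its bar in animal 1 and 1727 below it in animal 2.

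With each gene and its chromosome 1 copy added together, mt-Co3 stood at 12365 TPM in animal 1 and 13597 in animal 2 (log2 ratio 0.14). The sums for mt-Co2 were 15459 and 15650 TPM, for mt-Atp6 16014 and 16730 TPM, and for mt-Co1 14991 and 17128 TPM. The 3 complex IV mRNAs then lay between 12365 and 17128 TPM, and none of the 13 mRNAs was over 2-fold apart between the animals. The highest sum, that of mt-Atp6, was 20.8-fold above the lowest, mt-Nd6. In the mRNA pool the share of complex IV was 29.3% ± 2.26 for the annotated genes and 43.0% ± 3.55 with the copies. That of complex I was 41.5% ± 2.67 and 27.2% ± 1.82, that of ATP synthase 16.7% ± 1.46 and 21.6% ± 1.36, and that of complex III 12.5% ± 1.06 and 8.18% ± 0.370 (SD, n = 2 for all). The mRNAs took 7.61% and 6.10% of all TPM alone, and 11.0% and 10.8% with the TPM of the copies.

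Of the 13 mRNAs, 12 were lower in animal 2 by the ratio of TPM and by counts scaled with TMM factors, whereas 9 of 13 were lower with the copies and 6 of 12 in the second quantification. Among all genes at a mean TPM of 1 or more, 29.4% were lower by TPM and 45.9% by scaled counts, and 27.4% in the second quantification. The median log2 ratio of the 13 mRNAs was -0.15 by TPM, where the median of 5966 nuclear protein-coding genes at a mean TPM of 5 or more was 0.12. Relative to those nuclear genes it was -0.27 by TPM, -0.27 by scaled counts and -0.17 in the second quantification. Relative to the nuclear median, which by definition divides those nuclear genes evenly, 11 of 13 mRNAs were lower in animal 2 with the copies added. In the second quantification without copies, 8 of the 10 mRNAs of 519 bases or more were below its nuclear median. With copies there, 3 of those 10 had a ratio below 0. Of the mRNAs with no annotated copy on chromosome 1, mt-Atp8 (-0.86) and mt-Nd2 (4897 and 3785 TPM, -0.37) had the lowest ratios.

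**Figure D4:**
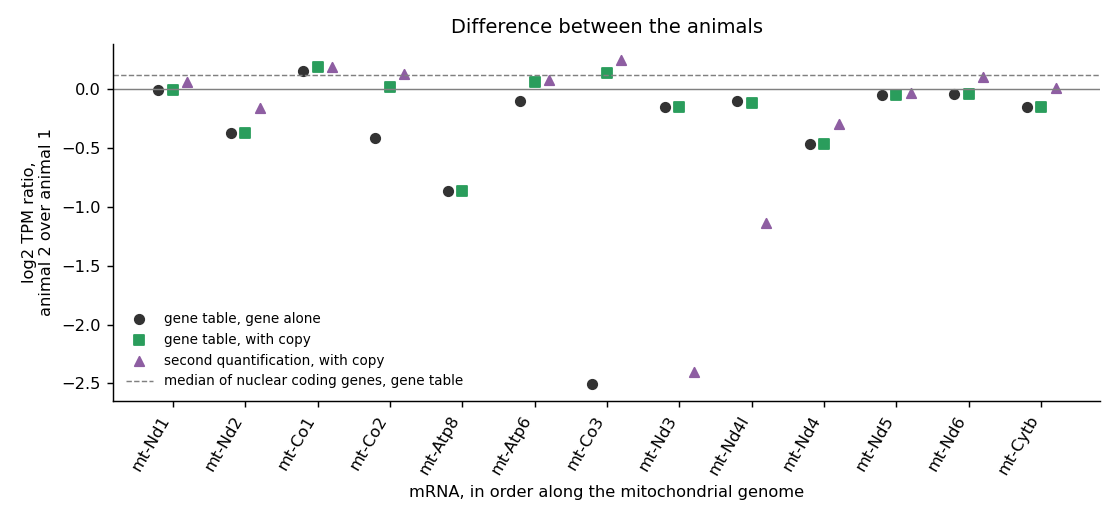
log2 ratio of TPM, animal 2 over animal 1, for the 13 mRNAs from the gene table alone, from the gene table with the chromosome 1 copy added, and from the second quantification with the copy added (mt-Atp8 is listed at 0 there). The ratio of -2.51 for mt-Co3 becomes 0.14 with the copy, and in the second quantification the short mt-Nd3 and mt-Nd4l stand apart instead.

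The shortest mRNAs differed most between the quantifications. The mRNAs of 519 bases or more, 10 in all, stood 1.23 to 1.66-fold higher in the second quantification than in the gene table once the copies were added to both, where the median for nuclear protein-coding genes was 1.43-fold. The 3 shortest were lower there. The gene mt-Atp8 (204 bases) was listed at 0 in both animals in the second quantification, mt-Nd4l (297 bases) stood at 28.1 and 12.8 TPM there against 4741 and 4430 in the gene table, and mt-Nd3 (348 bases) at 436 and 82.5 TPM against 3489 and 3150. These mRNAs had effective lengths, the number of places where a read can start, of 47.4 to 86.6 bases in the second quantification. In that table mt-Nd3 and mt-Nd4l were the 2 of 12 mRNAs over 2-fold apart between the animals, where 2.65% of all genes were. Between the quantifications, 5 of 13 mRNAs differed by over 2-fold in mean TPM for the gene alone and 3 of 13 with the copies, against 11.8% of all genes.

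The tRNAs could not be measured. All 22 were listed at 0 TPM in both animals, and all had an effective length of 0 in the gene table, which subtracts 99 bases from each length. They are 59 to 75 bases long (median 68.5), and 14 lie on the plus strand and 8 on the minus strand. The shortest and longest, mt-Ts2 for serine at chrM:11613-11671 and mt-Tl1 for leucine at chrM:2676-2750, show that no tRNA reaches the 100 bases the gene table needs, and mt-Tv, the tRNA for valine between the 2 rRNAs (chrM:1025-1093), gives an example of the spacers between larger genes.
mt-Ts2: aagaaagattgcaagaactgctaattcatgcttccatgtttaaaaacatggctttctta
mt-Tl1: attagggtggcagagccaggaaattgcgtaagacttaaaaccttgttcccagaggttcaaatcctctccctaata
mt-Tv: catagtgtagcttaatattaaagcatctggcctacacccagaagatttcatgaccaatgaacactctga

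The second quantification gave the tRNAs effective lengths of 22.2 to 26.6 bases and no counts. For any gene, a count of 0 allows up to 0.0855 CPM (counts scaled to the library total) in animal 1 and 0.0802 in animal 2, a limit for counting error that does not reach RNA too short for the method. None of the 2451 annotated transcripts under 100 bases had a count in that table in either animal, and 2395 annotated genes had an effective length of 0 in the gene table, so the zeros were shared by short RNAs of the nucleus.

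Cutting of the precursor also leaves some mRNAs without a full stop codon. The annotated mt-Co3 (ending at chrM:9390), mt-Nd4 (at chrM:11544) and mt-Cytb (at chrM:15288) stop in a lone T, in capitals here, which the poly(A) tail is known to complete to a stop codon. The other 10 carry a full stop codon in their annotated sequence. Of these, mt-Nd1 and mt-Nd2 each overlap the next tRNA by 2 bases and mt-Atp6 overlaps mt-Co3 by 1 base. The annotation alone thus does not give the number of mRNAs left without a full stop codon after cutting.
mt-Co3 end: tccatttattgatgaggatctT
mt-Nd4 end: ctaattacaggcctgacaataT
mt-Cytb end: aaaatactaaaattatatccaT

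Each of the 4 complexes joins subunits of the 2 genomes. In the gene table the mitochondrial mRNAs other than mt-Co2 stood above every nuclear subunit of their complex by mean TPM. In the second quantification mt-Nd3 (259 TPM) and mt-Nd4l (20.4) stood below Ndufb8 (692), and mt-Atp8 (0) below Atp5b (2123). There mt-Co2 (1235 TPM) stood above Cox6c (1130). The values that follow are from the gene table unless stated. For complex I, the median of 7 mitochondrial mRNAs was 28.9-fold the median of 36 nuclear ones in animal 1 and 21.5-fold in animal 2. The nuclear subunits Ndufc1 (427 ± 35.3 TPM) and Ndufb8 (371 ± 33.8) were highest and Ndufb4 (67.5 ± 0.615) lowest. For complex III, mt-Cytb stood at 26.7-fold and 22.3-fold the median of 9 nuclear subunits, of which Uqcrq (523 ± 61.0 TPM) and Uqcrc1 (415 ± 25.5) were highest and Uqcrc2 (209 ± 6.74) lowest.

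Complex IV gave 19.0-fold and 3.05-fold, since its median mitochondrial mRNA was mt-Co3, and 29.0-fold and 27.6-fold with the copies. Its nuclear subunits were led by Cox8b (762 ± 13.9 TPM), the form found in muscle, and Cox4i1 (682 ± 38.0), with Cox7c (296 ± 20.8) lowest. For ATP synthase the ratio was 17.5-fold and 12.2-fold, and 31.1-fold and 26.9-fold with the copies, with nuclear Atp5b (1520 ± 165 TPM) highest. With the copies, the 4 complexes in the gene table thus lay between 26.7 and 31.1-fold in animal 1 and between 21.5 and 27.6-fold in animal 2. Counts of copies were added for the mitochondrial genes only, not for the nuclear subunits. In the second quantification, without copies, the folds were 18.3 and 15.3 for complex I and 23.1 and 20.1 for complex III. They were 4.86 and 4.54 for complex IV and 15.9 and 15.3 for ATP synthase. With copies there, the complex IV mRNAs stood at 16625 to 22693 TPM in animal 1, but the folds were not computed. Whether the 4 complexes lie as close together in that quantification was thus not tested.

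**Figure D5:**
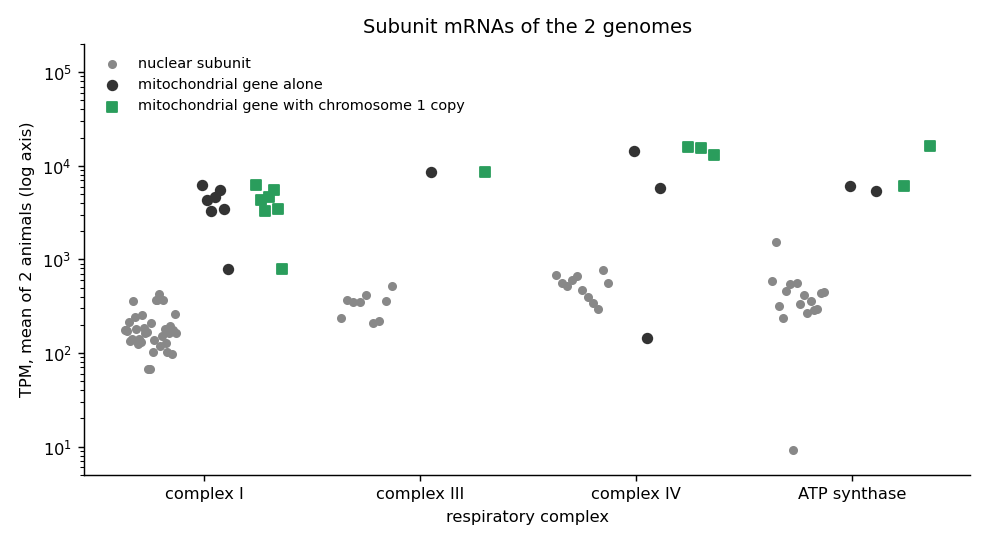
Mean TPM of 2 animals in the gene table (log axis) for subunits of 4 respiratory complexes. Nuclear subunits are grey, mitochondrial mRNAs black and mitochondrial mRNAs with their chromosome 1 copy green. The black point of mt-Co2 lies below all nuclear subunits of complex IV, and all green points lie above every nuclear subunit of their own complex.

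By TPM, where 29.4% of all genes were lower in animal 2, 4 of 36 nuclear subunits of complex I were lower, as were 1 of 9 of complex III, 2 of 11 of complex IV and 2 of 16 of ATP synthase, with median log2 ratios of 0.10 to 0.16, near the nuclear median of 0.12. By scaled counts, where 45.9% of all genes were lower, the numbers were 13, 2, 5 and 5. Only Atp5a1, the alpha subunit of ATP synthase, was over 2-fold apart (358 and 810 TPM, log2 ratio 1.18), where 1.27% of all genes were over 2-fold higher in animal 2. The lowest ATP synthase gene, Atp5g2, a form of the ring subunit, stood at 9.11 ± 3.31 TPM in the gene table and at 269 TPM in the second quantification.

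Genes that act on mitochondrial DNA and RNA were expressed at far lower levels. The 16 genes for transcription and upkeep of the DNA had a median of 5.85 ± 0.470 TPM, led by Tfam (23.3 and 19.6 TPM), which packs mitochondrial DNA and starts its transcription, and Polg (13.8 ± 0.566), its DNA polymerase, with Mterf1b lowest (0.37 ± 0.099). The 20 genes matched for processing, stability and decay had a median of 8.09 ± 0.187 TPM, led by Fastk (62.4 ± 5.17) and Slirp (50.4 ± 3.66), which act on the stability of mitochondrial mRNAs, with Fastkd5 lowest (2.30 ± 0.290). The 11 translation factors had a median of 8.74 ± 1.36 TPM, led by the elongation factors Tufm (50.3 ± 5.74) and Gfm1 (39.9 ± 5.98), with Mtrf1l lowest (1.97 ± 0.304).

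The 22 tRNA synthetases had a median of 5.74 ± 0.583 TPM, led by Kars (38.3 ± 2.26), which also serves the cytoplasm. Next was Lars2, which charges the tRNAs for leucine, at 32.01 and 19.2 TPM (log2 ratio -0.74), and Pars2 was lowest (0.97 ± 0.453). In the second quantification the order of the first 2 was the other way, with a mean of 119 TPM for Lars2 and 56.1 for Kars. The 20 genes for rRNA and tRNA modification had a median of 3.93 ± 0.445 TPM, led by Nsun2 (15.1 ± 0.361) and Osgepl1 (8.99 ± 0.318), with Trmt61b lowest (0.25 ± 0.113). In these lists Nsun3, which methylates the tRNA for methionine, was the only gene over 2-fold apart by TPM, at 3.42 and 1.58, but its counts were 152 and 153. Of the genes at a mean TPM of 1 or more, those lower in animal 2 by TPM numbered 4 of 14 for transcription, 2 of 20 for processing, 5 of 19 for modification, 7 of 21 for synthetases and 1 of 11 for translation, against 29.4% of all genes.

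The cells in the samples were checked with marker genes. All 6 markers of skeletal muscle fibres were present, with a summed level of 53009 TPM in animal 1 and 55452 in animal 2. Of the brown fat markers, Ucp1 had no counts and Cidea stood at 0.38 and 0.77 TPM. Of the 3 heart markers, Nppa had no counts, Tnni3 stood at 0.13 and 0.09 TPM, and Myh6 at 58.5 and 78.2 TPM. All 6 markers of slow fibres, the type known for many mitochondria, were higher in animal 2 (summed 1035 and 1924 TPM), as were all 4 Schwann cell markers (52.9 and 107 TPM). Of the 5 fibroblast markers, 4 were lower in animal 2 (summed 1735 and 1140 TPM), where 29.4% of all genes were lower by TPM. Among them Col1a1 stood at 864 and 469 TPM, whereas Col3a1 stood at 229 in both animals. Of the other lists, 3 of 4 tendon markers and all 4 erythroid markers were lower in animal 2, and all 3 endothelial markers were higher. Most genes were also higher in animal 2 by TPM, with a median log2 ratio of 0.12 over all genes. The median was 0.31 for endothelial markers, 0.92 for slow fibre markers and 0.87 for Schwann cell markers. Macrophage and adipocyte markers went both ways. The part of these differences in the levels of mitochondrial RNA was not tested, and in whole tissue fewer cells of a type and less RNA per cell cannot be told apart.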

How the data were processed

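Of the deposited tables, 2 kinds were used for each of 2 libraries. The authors computed expected counts, TPM and posterior means with interval bounds of unstated level in the gene table, in RSEM's columns, and estimated counts and TPM in a second transcript table, in kallisto's columns, per the file headers. mm10 and GENCODE M21 are named in the submitters' processing notes. Which tools and versions were run, and how strand was used, is not given in the sources used here.

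Levels are deposited TPM, without pseudocount. Second-table TPM was summed per gene. Ratios between animals were called at 2-fold among genes at a mean TPM of 1 or more, and repeated on counts scaled by edgeR 4.0.16 TMM factors (prior count 0.5) and DESeq2 1.42.0 size factors. No p-value was computed. Nuclear copies were found with blastn 2.17.0 (at least 200 bases at 95% identity). Shared windows were found by exact match of 100 bases on the same strand over 141730 transcripts. Only annotated transcripts were searched. The unannotated bases of chromosome 1 between Gm28661 and Gm10925, where the order of the genes would place mt-Atp8, were not. A gene's level with copies is the sum of its and its chromosome 1 copies' counts, scaled by the effective length of the mitochondrial gene. The ratio calls were tested on simulated data.

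Named were all mt- genes, all genes near Gm28437, other copies, Rn7s1 and Rn7s2, and of each nuclear list the top 2, the lowest and any over 2-fold apart. The members and lists were chosen with earlier results of these data known. The list members Atp5pb and Prorp were not matched and were left out. Labels number the animals as different males but give 1 donor entry for both, so the spread may be technical.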

Additional observations from a re-analysis of the deposited data

How the results depend on the processing

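No paired analysis was possible because both libraries belong to 1 group. Leaving out animal 1 or 2 leaves a single library, so the mitochondrial share of TPM then ranged from 18.3 to 24.1%, that of the mRNAs from 6.10 to 7.61% and that of the rRNAs from 12.2 to 16.5%, which says nothing of stability. These shares were 29.7%, 8.84% and 20.9% in the second quantification and 29.5%, 9.52% and 19.9% with Rn7s1 and Rn7s2 out of the total. The mRNA share was 5.08% of counts, and 10.9% of TPM with the copies on chromosome 1, a sum chosen after seeing the data, as were the other uses of copies for levels and complexes and with the second quantification. The median log2 ratio of the mRNAs (-0.15) was -0.25 by TMM and by DESeq2 size factors, -0.16 per library total, -0.17 by TPM without rRNAs, Rn7s1 and Rn7s2, -0.044 with copies and -0.0091 in the second quantification. It reversed to 0.038 in the second quantification with copies, where 5 of 12 mRNAs were lower in animal 2, against 6 of 12 without copies and 12 of 13 in the gene table. The number over 2-fold apart (1) was 0 with copies and 2 in the second quantification. The log2 ratio of mitochondrial to nuclear medians was 4.07 for complex I in the second quantification (4.64 in the gene table) and, with copies, 4.82 for complex IV (2.93) and 4.85 for ATP synthase (3.87). Of the 15 levels, 14 moved by more than the spread of the animals in the second quantification, where the median nuclear protein-coding gene stood 1.43-fold higher. The background of 2.34% of genes over 2-fold apart was 11.2% over every gene above 0 and 1.21% with a pseudocount of 1 TPM. Posterior means changed none of the shares, the median or the number lower. Apart from what each setting adds or leaves out, the cause of these changes was not tested. In the gene table the mRNA with the fewest counts, mt-Co2, holds 2764 and 2194, and in the second quantification mt-Nd4l holds 49 and 22 and mt-Atp8 holds 0.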
